A study of Equus caballus with 4 samples.

Results

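The 10 genes by which muscle satellite cells are recognised, or through which they sense their surroundings, were followed in equine cells treated with gamma-oryzanol (GO). They were the paired box factors PAX7 and PAX3, the growth factor receptors FGFR1, FGFR4 and MET, the chemokine receptor CXCR4, the adhesion molecules VCAM1 and NCAM1, and the syndecans SDC3 and SDC4. A probe was taken as a member when it was not a control spot and its gene name in the array files equalled 1 of the 10 symbols. This gave 14 of the 43603 probes, and these named 8 of the 10 genes, out of 13332 gene symbols on the array. PAX7 and VCAM1 had no probe by that rule. For PAX7 a probe was found by its description, and for VCAM1 a probe was found under the synonym VCAM, and both are described without being counted.

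GO, which is obtained from rice bran, consists of ferulic acid esters of plant sterols and related alcohols. Satellite cells from m. semitendinosus of horses were brought into differentiation in medium with horse serum, and on day 3 of differentiation RNA was taken after 24 h with 125 nM GO. The control cells received the same vehicle, DMSO at 0.04 μl/ml, for the same time, so both groups carried DMSO. The muscle came from 6-month-old colts, and per the methods the culture with the best scores was carried forward out of those of 6 horses, so the results apply to selected primary cells. Each of 4 two-color arrays of 1 slide held GO-treated cells in Cy5 and control cells in Cy3 (n = 4 ratios). The labels call the 4 arrays biological replicates, and whether they stand for different horses is not given in the sources used here, so the p-values measure the spread between these arrays. No array had its dyes swapped, so a dye effect on a probe and an effect of GO cannot be told apart.

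A satellite cell is the resident stem cell of a muscle fiber, lying between the fiber and its basal lamina. PAX7 and its relative PAX3 mark it and act upstream of the myogenic factors. HGF, which binds MET, and the FGFs, which bind FGFR1 and FGFR4, activate the cell and affect whether it divides or differentiates. Syndecans carry heparan sulfate, on which HGF and FGF are presented to their receptors. CXCR4 senses CXCL12 and serves migration, and NCAM1 and VCAM1 are immunoglobulin-type adhesion molecules, of which VCAM1 binds the integrin ITGA4 with ITGB1. In cultures entering differentiation PAX7 and PAX3 are turned down, while NCAM1 is retained on myoblasts and young myotubes.

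The outcome rests on probes of 60 bases, and some of those that the results turn on are shown first. The paired box pair and the syndecan pair are among them. Any 2 probes of different genes among the 10 shared a run of at most 8 bases. The probes were compared with each other only, not with the transcripts of related genes. Whether a probe also binds a relative was therefore not tested. Sequences are those of the array files, 5′ to 3′, and positions are on EquCab1. Capitals mark a TGA that closes a reading frame with no earlier stop within the probe. The annotation of that build was not used here, so exon or untranslated part is not stated.
PAX7, chrUn:310653135-310653548, minus strand: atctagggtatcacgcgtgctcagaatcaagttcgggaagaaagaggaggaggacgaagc
PAX3, chr6:11376663-11376722, minus strand: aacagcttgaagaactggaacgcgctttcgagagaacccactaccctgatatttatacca
FGFR4, chr14:4317238-4317519, minus strand: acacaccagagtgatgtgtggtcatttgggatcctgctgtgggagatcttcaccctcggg
MET probe 2, chr4:73438810-73438869, plus strand: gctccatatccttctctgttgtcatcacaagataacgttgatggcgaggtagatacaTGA
NCAM1 probe 1, chr7:18350982-18351041, plus strand: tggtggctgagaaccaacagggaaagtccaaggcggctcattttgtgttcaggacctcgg
SDC3, chr2:24002804-24002863, plus strand: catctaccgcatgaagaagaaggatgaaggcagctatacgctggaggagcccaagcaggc
SDC4, chr22:34441189-34441248, minus strand: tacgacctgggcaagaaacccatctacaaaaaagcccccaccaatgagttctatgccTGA
The files place the FGFR4 and PAX7 probes over 282 and 414 genomic bases, more than the length of the probe.

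A probe is called well above background when Feature Extraction, the scanner software, marks its signal so in a channel. Of the 14 probes, 12 were marked so on all 4 arrays for control cells, and 8 for GO-treated cells. Over all probes on the array these shares were 61.4% and 56.6%. The 8 probes measured in both channels on all 4 arrays were those of FGFR1, MET, NCAM1 and SDC4. PAX3, FGFR4 and SDC3 were detected this way in control cells on every array, but in GO-treated cells on 2, 2 and 3 arrays. CXCR4 probe 1 was detected in control cells on all 4 arrays and in GO-treated cells on none. Within a gene, probes are numbered with tested probes first and then by brightness.

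**Figure D1:**
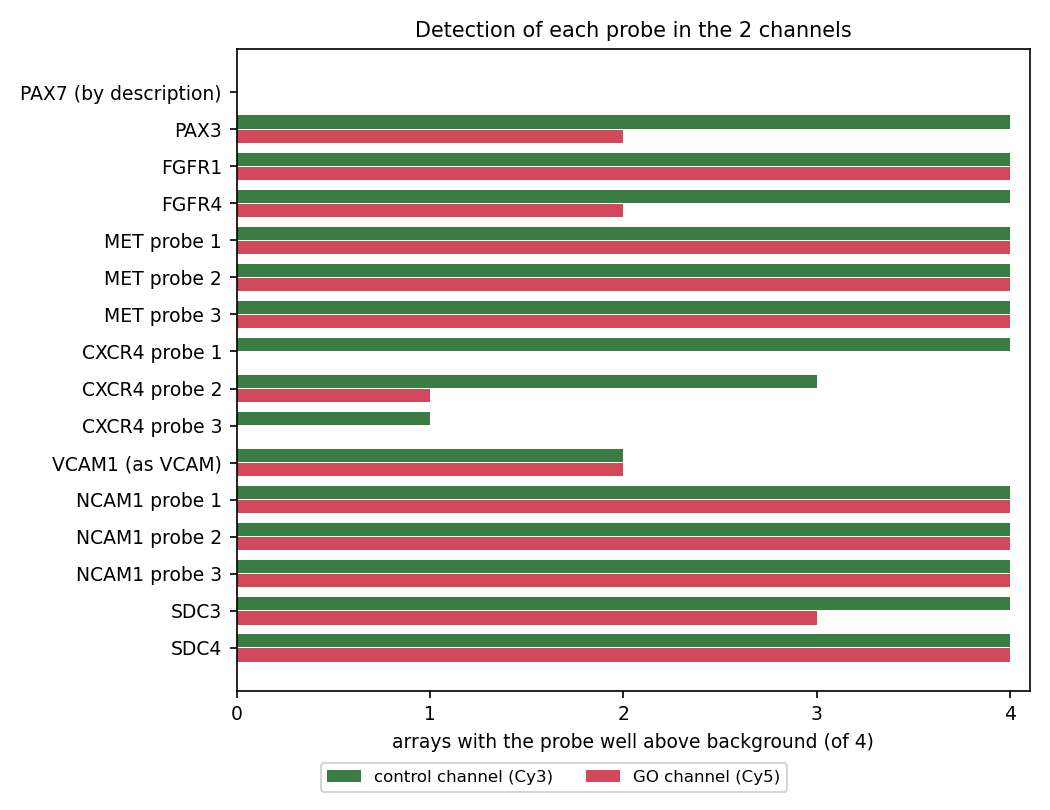
Number of arrays (of 4) on which each probe was well above background, for control and for GO-treated cells. Probes of MET, NCAM1, FGFR1 and SDC4 fill both channels, PAX7 fills neither, and the GO bar is the shorter one for PAX3, FGFR4, SDC3 and CXCR4 probes 1 to 3.

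Of the 14 probes, 12 were tested, namely those well above background in either channel on all 4 arrays. Among them 5, for NCAM1 (3 probes), FGFR4 and CXCR4, were lower in GO-treated cells past both thresholds, an adjusted p of at most 0.05 (limma, Benjamini-Hochberg over 26832 probes) and a fold change of at least 1.3, which is 0.38 on the log2 scale. None was higher, and at an unadjusted p under 0.05 the counts were 6 lower and 0 higher, beside 17.9% and 17.8% of all tested probes. Over all tested probes 8.94% passed both thresholds, 5.61% lower and 3.33% higher. The median log2 ratio, GO over control, was -0.18 over the 12 tested probes of these genes and 0.00 over all tested probes. PAX3, FGFR4, CXCR4 and SDC3 entered the test through the control channel alone, which only a probe bright in control cells can do, so neither the count nor the median is read as evidence of a direction. The other 5 genes, PAX3, FGFR1, MET, SDC3 and SDC4, had no probe past both thresholds. By sign alone, 6 of the 12 tested probes were lower on every array, 1 was higher on every array and 5 were mixed, while 21.5% of all tested probes were lower and 22.1% higher on every array.

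**Figure D2:**
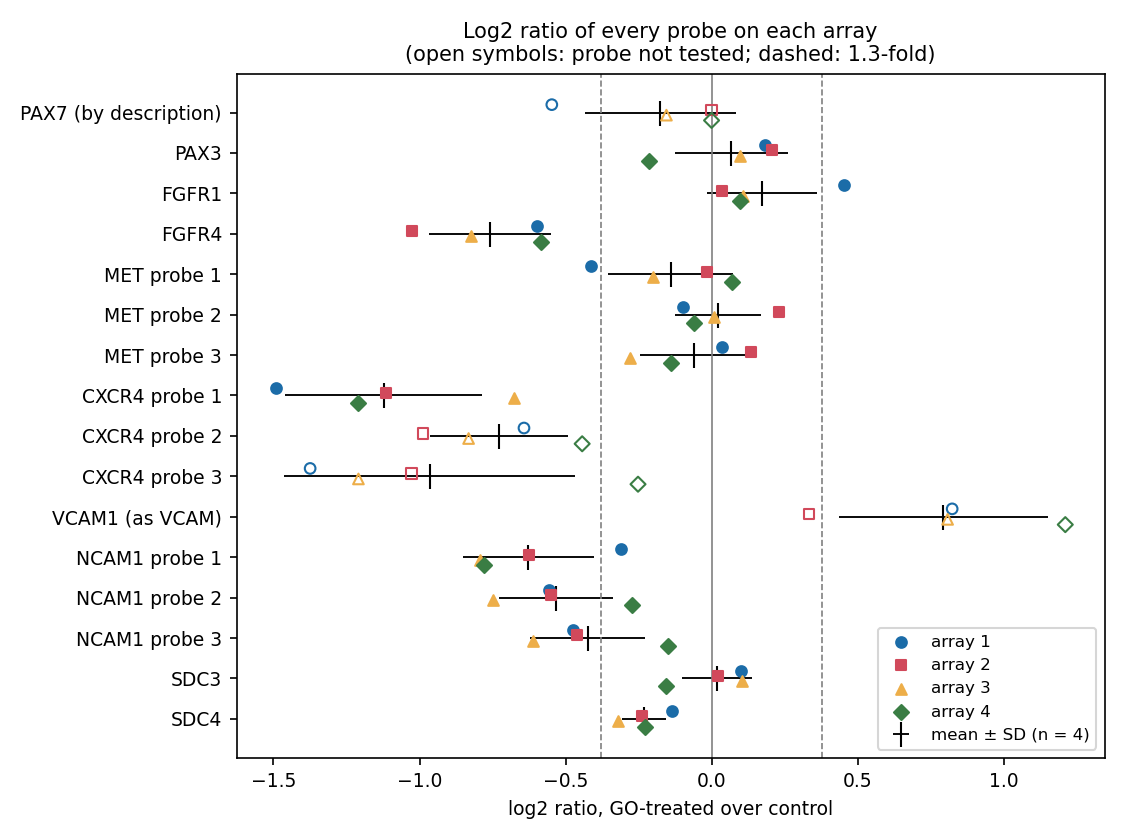
Log2 ratio (GO-treated over control) for each probe on each of the 4 arrays (symbols), with the mean and SD (black), and open symbols for probes that were not tested. CXCR4, FGFR4 and NCAM1 lie left of 0 on every array, FGFR1 and the VCAM1 probe lie right of 0 on every array, and PAX3, MET and SDC3 lie on both sides of 0.

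The paired box factors were at or near the limit of detection. The PAX7 probe was well above background in 0 of 4 control channels and 0 of 4 GO channels. Its processed signals, the background-corrected and dye-normalized intensities of the scanner software, were 14.1, 2.43, 5.27 and 3.38 in control cells and 9.65, 3.55, 4.74 and 6.96 in GO-treated cells on arrays 1 to 4. These signals give no ratio that could be tested, and a level of PAX7 RNA under background was not measured here.

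PAX3 was measured in the control channel of every array, at 27.6, 24.1, 21.7 and 28.1, beside 31.3, 27.9, 23.2 and 24.2 in the GO channel. Its log2 ratios were 0.18, 0.21, 0.10 and -0.22. Arrays 1 to 3 were slightly higher with GO and array 4 was lower, and the channels overlapped. The mean was 0.07 ± 0.19 (SD, n = 4; 95% interval -0.13 to 0.27; limma adjusted p = 0.605), and its sign turned with normexp background correction, to -0.03, and without lowess, to -0.07.

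FGFR4, the receptor that in muscle is largely a feature of myogenic cells, gave control signals of 49.4, 73.5, 34.7 and 42.6 and GO signals of 32.7, 36.1, 19.6 and 28.4. On each array the GO signal was the lower, although the ranges of the channels overlapped across arrays. The log2 ratios were -0.60, -1.03, -0.82 and -0.58, a mean of -0.76 ± 0.21 (SD, n = 4), or 1.69-fold lower (SE 0.09, limma adjusted p = 0.00514). The GO channel was well above background on 2 of 4 arrays only. Among tested probes that lacked this mark for GO-treated cells on at least 1 array, 14.5% were called lower. With normexp background correction, whose offset of 50 is as large as these signals, the log2 ratio was -0.26 (adjusted p = 0.0470) and the fold no longer reached 1.3.

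FGFR1, the FGF receptor found on many cell types, was measured in both channels of all arrays. The control signals were 296, 382, 254 and 263, and the GO signals were 405, 392, 274 and 281. GO was the higher channel on every array, by little on 3 of them and by more on array 1, with log2 ratios of 0.45, 0.04, 0.11 and 0.10. The mean of 0.17 ± 0.19 (SD, n = 4; 95% interval -0.03 to 0.37) did not pass (limma adjusted p = 0.186), and without array 1 it was 0.08. The difference between the FGFR4 and FGFR1 ratios was not tested, and on every array the ratio of FGFR4 was below 0 and that of FGFR1 above it.

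MET, the receptor for HGF, was read by 3 probes that do not overlap, of which probes 2 and 3 abut and probe 1 lies 1933 bases beyond probe 2. The control signals of probe 1 were 4369.5, 2472, 4336 and 3494, and its GO signals were 3283, 2448, 3769 and 3667. Its log2 ratios were -0.41, -0.01, -0.20 and 0.07, with a mean of -0.14 ± 0.21 (95% interval -0.35 to 0.08; limma adjusted p = 0.308). Probe 2, shown above, gave -0.10, 0.23, 0.01 and -0.06 with a mean of 0.02 ± 0.15, and probe 3 gave 0.04, 0.13, -0.28 and -0.14 with a mean of -0.06 ± 0.18 (SD, n = 4). No MET probe kept 1 sign across the arrays, and none passed (limma adjusted p of 0.868 for probe 2 and 0.628 for probe 3).

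CXCR4, the chemokine receptor, was lower with GO in signals that were low throughout. Probe 1 (chr18:8405850-8405909) had control signals of 29.4, 21.7, 30.6 and 21.4 and GO signals of 10.4, 10.0, 19.1 and 9.26. Every GO signal was below every control signal. The log2 ratios were -1.49, -1.11, -0.68 and -1.21, with a mean of -1.12 ± 0.34 (SD, n = 4; SE 0.13; limma adjusted p = 0.00475). The probe entered the test through the control channel alone, and its GO signal was not well above background on any array. Counted to the lowest signal among probes well above background on each array, the fall was 1.31-fold, beside 2.18-fold as measured. With normexp the log2 ratio was -0.21 (limma adjusted p = 0.0499), under a fold of 1.3, so neither value is a lower limit.

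The other CXCR4 probes overlap or abut probe 1 and are no independent reading of the gene, since probe 2 shares 30 bases with each of the others. They were not well above background often enough to be tested. Probe 2 gave log2 ratios of -0.64, -0.99, -0.83 and -0.44, and probe 3 gave -1.37, -1.03, -1.21 and -0.25. Both were lower with GO on all 4 arrays by these deposited ratios. With normexp probe 2 gave -0.04, -0.21, -0.25 and -0.15. Probe 3 gave -0.02, -0.09, -0.14 and 0.06, so its sign was not the same on all arrays.

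NCAM1, the adhesion molecule also called CD56, was lower with GO on 3 probes that were well above background throughout. Probe 1 gave control signals of 4725, 6054, 5645 and 4716 and GO signals of 3809.7, 3921, 3259.8 and 2747, so the channels did not overlap. Its log2 ratios were -0.31, -0.63, -0.79 and -0.78, with a mean of -0.63 ± 0.22 (SD, n = 4), or 1.54-fold lower (limma adjusted p = 0.00886).

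Probes 2 and 3 of NCAM1 abut each other 16122 bases downstream of probe 1, at chr7:18367164-18367283. Probe 2 gave 1431, 1283, 1571 and 1124 in control cells and 973, 877, 934 and 929 with GO. Its log2 ratios were -0.56, -0.55, -0.75 and -0.27, a mean of -0.53 ± 0.20 (SD, n = 4; 1.45-fold lower; limma adjusted p = 0.0113). Probe 3 gave log2 ratios of -0.47, -0.46, -0.61 and -0.15, a mean of -0.42 ± 0.20 (1.34-fold lower; adjusted p = 0.0214). All 3 probes were thus lower on every array, and array 1 had the smallest fall for probe 1 while array 4 had it for probes 2 and 3. Leaving out array 2 ended the call of probe 2 (log2 ratio -0.53, adjusted p = 0.0545). Probe 3 was no longer called without array 1 (-0.41, adjusted p = 0.0587), array 2 (-0.41, 0.0869) or array 3 (-0.36, 0.0788), whereas probe 1 was called without any 1 array. With normexp the log2 ratios were -0.64, -0.48 and -0.36 for probes 1 to 3, the last below the fold threshold.

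The VCAM1 probe, named VCAM in the files (chr5:38439231-38439290), had ratios above 0 in dim signals. Its control signals were 19.6, 26.8, 12.9 and 12.1, and its GO signals were 34.7, 33.8, 22.5 and 28.0. GO was higher on each array, with log2 ratios of 0.82, 0.33, 0.81 and 1.21 (mean 0.79 ± 0.36, SD, n = 4). The probe was well above background on 2 of 4 arrays in either channel and was not tested. With the filter on dim probes left off, its limma adjusted p was 0.0957.

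**Figure D3:**
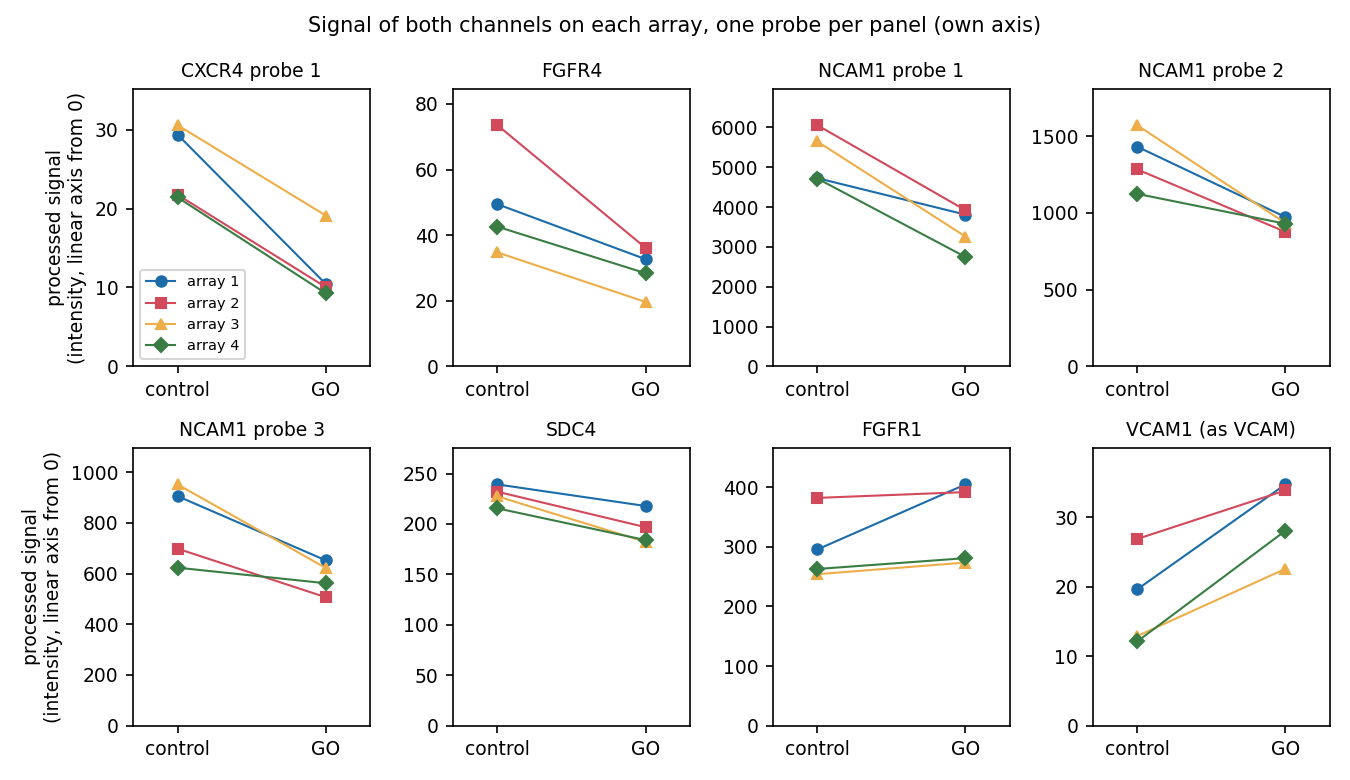
Processed signal (intensity, linear axis from 0, its own axis in each panel) in the control and the GO channel, with a line for each array. All lines fall for CXCR4 probe 1, FGFR4, NCAM1 probes 1 to 3 and SDC4, and all lines rise for FGFR1 and VCAM1, those of VCAM1 between 12.1 and 34.7 only.

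The syndecans are proteoglycans of the cell surface. SDC4 gave 239, 232, 227 and 215 in control cells and 218, 197, 182 and 184 with GO. On each array GO was lower, while the ranges overlapped at 1 GO signal. The log2 ratios were -0.14, -0.24, -0.32 and -0.23, a mean of -0.23 ± 0.08 (SD, n = 4; 95% interval -0.37 to -0.09). The adjusted p was 0.0419 (limma) and the fold was 1.17, so SDC4 passed the first threshold and not the other. By adjusted p alone 6 member probes passed, all lower, beside 18.1% of all tested probes in either direction.

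SDC3, the syndecan that like SDC4 is used to mark satellite cells, had log2 ratios of 0.10, 0.02, 0.10 and -0.15. The mean was 0.02 ± 0.12 (SD, n = 4; 95% interval -0.14 to 0.18; limma adjusted p = 0.874).

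The partners of these receptors were read with the brightest probe of each gene. Over all genes by this reading 8.71% passed both thresholds, 3.33% higher and 5.37% lower, and at an unadjusted p under 0.05 17.4% were higher and as many lower. Counts over lists use this probe alone, and other probes of a gene may differ from it. Of 15 ligands and counter-receptors 8 were tested, 2 rose and 2 fell, with a median log2 ratio of 0.26. HGF, the ligand of MET, rose with log2 ratios of 0.42, 1.44, 0.90 and 0.75 (mean 0.88 ± 0.42, SD, n = 4; 1.84-fold; limma adjusted p = 0.0145). All 4 arrays were higher, by differing amounts. HGF had 1 probe, dim but well above background in both channels on all 4 arrays. Its signals were 44.8, 20.7, 42.9 and 37.8 in control cells and 60.1, 56.2, 80.0 and 63.4 with GO. The largest ratio, on array 2, went with the lowest control signal. FGF2, an FGF that stimulates satellite cells, stood at 0.23 ± 0.19 (adjusted p = 0.0992), whereas FGF5 fell (-0.68 ± 0.19, adjusted p = 0.00560), having entered the test through control cells alone, with the GO signal well above background on 3 arrays. CXCL12, the ligand of CXCR4, was not tested, as its brightest probe was well above background on 2 arrays in either channel.

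Among the integrin chains on the list, ITGA4, which pairs with ITGB1 to bind VCAM1, fell with ratios of -0.66, -0.62, -0.30 and -0.30 (mean -0.47 ± 0.20, SD, n = 4; limma adjusted p = 0.0162), and 4 of its 5 probes were past both thresholds. ITGA9, another partner of ITGB1, rose by 0.46 ± 0.10 on its brightest probe (adjusted p = 0.00756), the only one called of 3 tested, and the lowest of them was at 0.21. ITGB1 itself stood at -0.31 ± 0.20 (adjusted p = 0.0541).

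Of 11 tested receptor relatives and proteoglycans 1 rose and 1 fell, and the median was 0.16. GPC3, a glypican that also carries heparan sulfate, fell on both of its probes, the brighter with log2 ratios of -1.28, -0.78, -0.67 and -0.84 (1.86-fold lower; limma adjusted p = 0.00514). HSPG2, the basement membrane proteoglycan perlecan, rose by 0.43 ± 0.28 (SD, n = 4; adjusted p = 0.0380). FGFR2 at 0.25 ± 0.27 and FGFR3 at 0.16 ± 0.15 did not pass. Of 13 tested genes for heparan sulfate synthesis and editing, none was past both thresholds in limma, 4 were higher and 5 lower at an unadjusted p under 0.05, and the median was 0.09.

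In the relay and feedback of FGF and HGF signals, 2 of 16 tested genes rose and 1 fell, with a median of 0.08. EGR1, an immediate early transcription factor, rose with log2 ratios of 0.79, 1.16, 1.28 and 1.46 (mean 1.17 ± 0.28, SD, n = 4; 2.25-fold; limma adjusted p = 0.00288). DUSP6, a phosphatase that switches off ERK, rose by 0.47 ± 0.23 (adjusted p = 0.0211) on 1 of its 2 probes, the other being at 0.22 and not called. ETV1, a transcription factor of the ETS family, fell by 0.49 on the log2 scale (SD 0.35, adjusted p = 0.0455). SPRY1 and SPRY2, feedback inhibitors of receptor tyrosine kinases, stood at 0.11 ± 0.06 and -0.11 ± 0.13 and did not pass.

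Of 7 tested adhesion relatives of NCAM1 and VCAM1, ALCAM rose (0.46 ± 0.08, SD, n = 4; limma adjusted p = 0.00605) and CADM1 fell (-0.56 ± 0.22, adjusted p = 0.0121). Both belong to the immunoglobulin superfamily. ST8SIA2 and ST8SIA4, which put polysialic acid on NCAM1, were not well above background on any array.

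Of 17 tested genes among the other satellite cell and progenitor genes 5 fell and none rose (4 were higher at an unadjusted p under 0.05), and the median of the list was -0.04. MYF5, the myogenic factor expressed earliest, had log2 ratios of -0.97, -0.88, -0.96 and -0.90 (mean -0.93 ± 0.04, SD, n = 4; 1.90-fold lower; limma adjusted p = 0.00102), and all 6 of its probes were called. CD82, a tetraspanin of human satellite cells, fell by 0.74 on the log2 scale (SD 0.35, adjusted p = 0.0144). MEGF10, a receptor that favours proliferation of satellite cells, fell by 0.68 (SD 0.24, adjusted p = 0.00828). SIX4 (-0.48 ± 0.13) and EYA1 (-0.42 ± 0.16), transcriptional regulators of the muscle lineage, were also past both thresholds (adjusted p of 0.00788 and 0.0163), EYA1 having entered the test through control cells alone, with the GO signal well above background on 3 arrays. CD34 and CALCR, markers of quiescent satellite cells in mice, were not well above background on any array. They were among 5 such genes of the 26 on the list with a probe. In control cells 17 of the 26 were well above background on all 4 arrays, CAV1, TENM4, HEY1 and HEYL among them. MYF5 also stands among the myogenic markers that follow.

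**Figure D4:**
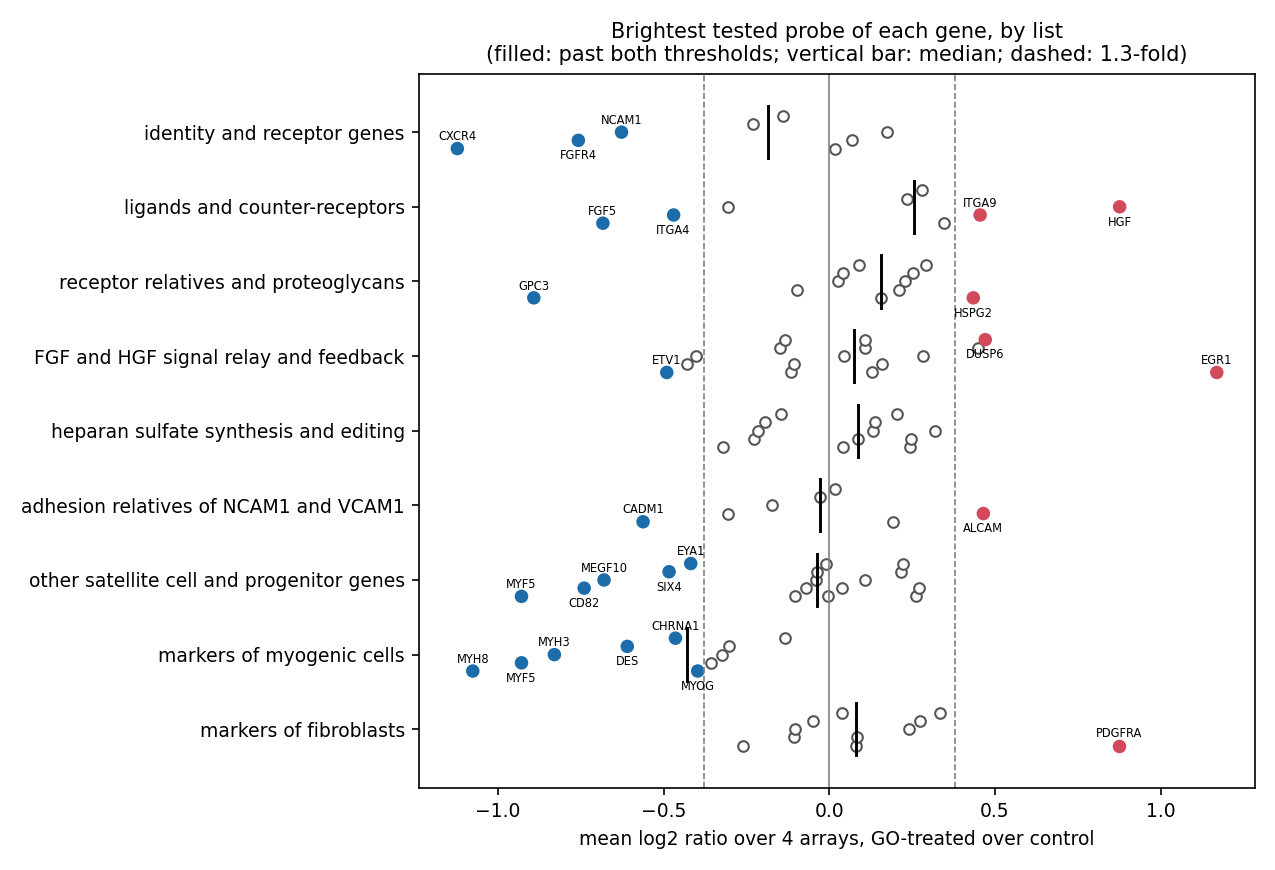
Mean log2 ratio (GO-treated over control) for the brightest tested probe of each gene, by list, with genes past both thresholds filled (blue lower, red higher) and the median of each list as a vertical bar. The medians are -0.18 for the identity and receptor genes, 0.26 for their ligands and counter-receptors and -0.43 for the myogenic markers, and the other lists drawn lie between -0.04 and 0.16.

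Markers of the labelled cell type were present. All 10 myogenic markers with a probe were tested, 6 of them fell and none rose, with a median of -0.43. At an unadjusted p under 0.05, 9 were lower and 0 higher. The summed processed signal of their probes was 235249 to 335606 in control cells and 157830 to 225155 with GO, ranges that did not overlap. Most of this sum came from ACTC1 and MYH3, with control signals of 132548 to 199227 and 67971 to 94635. ACTC1 itself was not past both thresholds (-0.33 ± 0.20), and its channels overlapped, with GO signals of 96070 to 144767. DES, the intermediate filament of muscle cells, stood at -0.61 ± 0.24 (SD, n = 4; limma adjusted p = 0.0113). MYOG, the differentiation factor, stood at -0.40 ± 0.11 (adjusted p = 0.0123), with its other probe at -0.36 and not called. MYOD1 was at -0.36 ± 0.33 (adjusted p = 0.0905) with its other probe at -0.06, and neither was called. The embryonic and perinatal myosin heavy chains MYH3 (-0.83 ± 0.19, adjusted p = 0.00338) and MYH8 (-1.08 ± 0.43, adjusted p = 0.00824) and the acetylcholine receptor subunit CHRNA1 (-0.46 ± 0.15, adjusted p = 0.0109) fell as well. Of 11 fibroblast markers PDGFRA rose (0.87 ± 0.48, adjusted p = 0.0199) and none fell (1 was lower at an unadjusted p under 0.05) by the brightest probe, although 2 of 9 COL1A2 probes were called, the lowest at -0.42, and 1 of 2 DCN probes, at 0.42, and their summed signal, 437398 to 680716 in control cells and 468140 to 634021 with GO, overlapped. As these are bulk RNA samples, fewer myogenic cells and less of an RNA per cell cannot be told apart. The fall of NCAM1 came with lower signals of the myogenic markers, as did the lower ratios of FGFR4 and CXCR4, which entered the test through control cells alone, and the part of the cell makeup in them was not tested.

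Markers of endothelial cells, Schwann and neural cells and adipocytes were mostly undetected, but those of other cell types were not. Well above background in control cells on all 4 arrays were all 11 fibroblast markers with a probe. The same held for 5 of 9 pericyte and smooth muscle markers and 3 of 8 leukocyte markers with a probe. Of 8 endothelial markers with a probe 7, PECAM1, CDH5 and VWF among them, were not well above background on any array, as were 6 of 7 Schwann and neural cell markers and 4 of 6 adipocyte markers. Signals were summed over the genes of a list on each array, and the lowest and highest of the 4 arrays are given. For the endothelial list they were 258 to 357 in control cells and 241 to 352 with GO. Most of this was ERG, at 224 to 322 in control cells and 187 to 313 with GO. The sums were 45.3 to 93.2 and 44.1 to 105 for the Schwann list, and 59.7 to 119 and 54.9 to 141 for the adipocyte list. None of the 5 tested pericyte and smooth muscle markers and none of the 3 tested leukocyte markers was past both thresholds by its brightest probe (limma), although 2 of the 4 tested MCAM probes were called, the lowest at -0.70 and the brightest at 0.02. At an unadjusted p under 0.05 there were 0 of the pericyte and smooth muscle markers, and 1 leukocyte marker was higher and 1 lower. The pericyte sums were 12349 to 22263 and 13020 to 22148, and the leukocyte sums were 5245 to 6207 and 5723 to 6502, with CD3E, CD4 and ITGAM not well above background on any array.

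The way the ratios were processed mattered most for the dim genes. NCAM1 probe 1 kept a log2 ratio of -0.54 to -0.66 across the 4 ways of processing that were set side by side. Probe 2 ran from -0.48 to -0.54, and probe 3 from -0.36 to -0.43, not called with normexp. FGFR4 ran from -0.26 to -0.87, and CXCR4 from -0.21 to -1.33, the smallest values being those with normexp. SDC4 stayed below 0, FGFR1 stayed above it, and neither was past both thresholds in any of the 4. None of the 5 lower probes was called once all 43603 probes were tested without the filter on dim probes, nor by a plain one-sample test, nor when the channels were fitted without the array as a block.

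**Figure D5:**
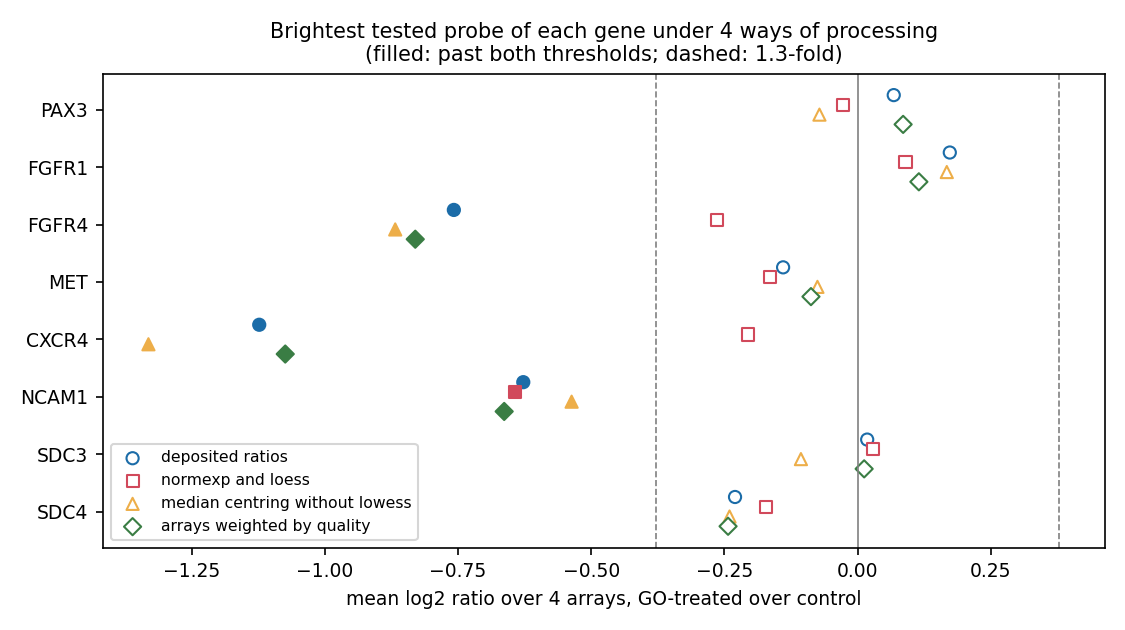
Mean log2 ratio over 4 arrays for the brightest tested probe of each gene with the deposited ratios, with normexp and loess, with median centring without lowess, and with arrays weighted by quality; filled symbols are past both thresholds. NCAM1 is filled in all 4, FGFR4 and CXCR4 are filled in all but normexp, and PAX3 and SDC3 change sign.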

How the data were processed

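The authors processed the 4 arrays with Feature Extraction (version 10.10.1.1 per the file headers). The deposited log10 ratios are processed Cy5 over Cy3 after linear and lowess dye normalization, and the deposited intensity values are the signals of each channel. The ratios were converted to log2, control spots and 10 to 19 outlier spots per array were left out, and 26832 of 43603 probes, well above background in the GO or the control channel on all 4 arrays, were tested against 0 with limma (version 3.58.1), two-sided, with Benjamini-Hochberg adjustment. No spot was saturated. In the control channel 63.5 to 68.9% of spots were well above background and in the GO channel 57.4 to 67.0%, and the number of arrays limits the precision. The thresholds are those of the methods. Both channels of an array deviated together from their group means (correlation 0.484 to 0.862), against at most 0.238 between arrays, and the ratio pairs them.

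The genes and lists were chosen with earlier results of these data known. Named were all 10 genes, each listed gene whose brightest probe passed both thresholds, and HGF, FGF2, CXCL12, ITGA4 and ITGB1. Added after their values were seen were FGFR2, FGFR3, SPRY1, SPRY2, MYOD1, ACTC1, MCAM, COL1A2, DCN, ERG, the dim markers, ST8SIA2, ST8SIA4, CD34 and CALCR. So were CAV1, TENM4, HEY1 and HEYL. Of these data, 1 probe sequence and 1 listed gene are not reported here, and the counts over lists leave that gene out. VCAM1 was matched through RefSeq synonyms. Alternatives were normexp background correction (offset 50) with loess, median centring, other filters, a plain one-sample test, channels without the array as a block, quality weights and leaving out each array.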

Additional observations from a re-analysis of the deposited data

Results flagged for a closer look

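One of 16 probes examined had an array that stood apart from the others by more than Dixon's 95% limit for 4 values. This was FGFR1, where array 1 had a log2 ratio of 0.45 and the others lay between 0.04 and 0.11, a gap of 0.831 of the range. Chance alone flags about 1 in 20 groups. Without array 1 the mean was 0.08.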

How the results depend on the processing

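The count of member probes that were lower past both thresholds was 5. It was 2 with normexp and loess, 3 with the filter set on both channels, and 0 with no filter on dim probes, with a plain one-sample test, and with the channels fitted without the array as a block, and leaving out 1 array gave 3 to 5, the lowest without array 2. The count over all tested probes, 2399, was 1297 with normexp, 908 with no filter, 147 with the plain test and 370 without the array block, and 1566 to 2430 with 1 array left out, the lowest again without array 2. The count of genes past both thresholds in the lists other than cell type markers, 16, was 7 with normexp, 5 with no filter, 1 with the plain test, 5 without the array block and 12 to 16 with 1 array left out. No member probe was higher past both thresholds under any of these.

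Without the filter the adjusted p of FGFR4, CXCR4 probe 1 and NCAM1 probe 1 was 0.0517, 0.0569 and 0.0699, with the plain test 0.0817, 0.0882 and 0.0991, and without the array block 0.227, 0.0502 and 0.0832. PAX3 changed sign with normexp (-0.0274) and without lowess (-0.0715). SDC3 changed sign without lowess (-0.106) and ran from -0.0101 to 0.0756 with 1 array left out, with -0.0095 without array 1 and the lowest without array 3. None of these was called, and the cause was not tested. The array block is the replicate block here, since both channels of an array carry 1 replicate number. Weighting arrays by quality left the count of lower member probes at 5. The median of each array was already 0, so centring the deposited ratios on it changed no value and tests nothing.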
